A study of Mus musculus with 18 samples.

Results

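A set of 8 genes that make, bind or break down hyaluronan was followed through the mouse urinary bladder: Has1, Has2, Has3, Tnfaip6, Cd44, Vcan, Hyal1 and Hyal2. They are 8 of the 32747 gene names in the deposited tables, and they were chosen by name, with their difference between intact and dissociated bladder in bulk RNA and their levels in cell classes and tissue spots already known. Differences between preparations, between classes and between kinds of spot are therefore given as a description, without a test. Age was not among the comparisons they were chosen by, and it is the one comparison in which the members are tested. All animals were C57BL/6 mice of the ages given here, with no treatment or transgene named in the labels. Bulk RNA came from intact bladders (3 libraries) and from bladders dissociated to cells (3 libraries), all from females of 12 months. Droplet libraries of dissociated whole bladder came from males of 3 months (1 library), males of 22 months (1 library), pools of both sexes of 12 months (2 libraries) and a pool of both sexes of 24 months (1 library). Nuclei were prepared from a pool of both sexes of 12 months (1 library). Cells were also taken from the detrusor, the muscle layer, of females of 14 months (1 library) and from a detrusor-enriched preparation of both sexes of 14 months (1 library). Frozen sections on spatial arrays came from males of 22 months (2 sections) and 14 months (2 sections). The droplet pools held 3 or 4 animals by their labels, so cells of a library cannot be assigned to an animal. Nothing in the labels says whether the 3 bulk libraries of a group came from separate animals, so their spread may be partly technical.

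Hyaluronan is a long unbranched sugar chain of the extracellular matrix. It is spun out at the cell surface by the synthases Has1, Has2 and Has3 from sugar nucleotides made in the cytoplasm. Tnfaip6, also called TSG-6, transfers protein chains onto hyaluronan and so cross-links it, versican (Vcan) is a large proteoglycan that binds it in the matrix, and CD44 is its main cell surface receptor. Hyal2 cuts long chains at the cell surface and Hyal1 cuts them further in lysosomes. In the bladder, hyaluronan lies in the connective tissue under the urothelium and between muscle bundles, and the urothelium carries a glycosaminoglycan coat on its luminal face.

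Promoter sequences are shown for Tnfaip6 and Has1 because these genes had the widest bulk differences of the 8. RefSeq sequences on GRCm38.p6 were matched for 6 of the 8 genes; the promoters of Has2 and Has3 were not analysed here. For each gene the 250 bases before the transcript start that the RefSeq promoter table uses were searched on both strands for short motifs, and the same search was made in 32851 promoter windows of this length. The Tnfaip6 promoter lies at chr2:52037863-52038112 on the plus strand, directly before the gene at chr2:52038113-52056681. Capitals mark, in order, a GC box (GGGCGG, here on the other strand), 171 to 166 bases before the start, and an AP-1 motif (TGANTCA), 142 to 136 bases before it.
Tnfaip6 promoter: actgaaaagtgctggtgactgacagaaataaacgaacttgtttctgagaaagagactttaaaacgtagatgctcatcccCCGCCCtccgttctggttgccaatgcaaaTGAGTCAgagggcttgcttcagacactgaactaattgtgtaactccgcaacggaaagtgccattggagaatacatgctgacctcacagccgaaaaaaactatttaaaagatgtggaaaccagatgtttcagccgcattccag
For Has1, at chr17:17833691-17855589 on the minus strand, the table uses a transcript start inside the gene's full span, so its 250 bases (chr17:17855189-17855438) lie within that span, and 30 of them around the match are shown (chr17:17855250-17855279). The windows of Vcan and Hyal2 also lie within their genes' spans. Capitals mark a CRE (TGACGTCA), the cyclic AMP response element, 83 to 76 bases before that transcript start.
Has1 window: acttgtccTGACGTCAgccctcctccaccc
The AP-1 letters occurred in 6.75% of all windows, the CRE in 1.55% and the GC box in 32.7%. The CRE spans 2 overlapping matches to its shorter form TGACG, which occurred in 17.8% of windows. Hyal2 held 1 match to the NF-kB motif, present in 15.9% of windows, and 1 GC box. Vcan and Hyal1 each held 2 GC boxes, and Cd44 held none of the motifs searched. A match describes letters and is no evidence of binding.

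The 3 synthases were all higher in dissociated than in intact bladder, and by very different amounts. Values are CPM, reads scaled to the same total of assigned reads in each library, in libraries of 23083752 to 68760791 reads. Has1 stood at 0.477, 0.451 and 0.731 CPM in the 3 intact libraries and at 222, 178 and 193 CPM in the dissociated ones. The intact values rested on 61 reads in all and the dissociated ones on 15711 reads, and no dissociated library came near an intact one. The log2 difference for Has1 was 8.66 ± 0.19 (SE), a 357-fold ratio of the mean CPM. Has2 stood at 1.65, 2.55 and 1.85 CPM in intact bladder and at 38.4, 36.5 and 27.0 CPM after dissociation. Its groups did not overlap either, with a log2 difference of 4.14 ± 0.20 (SE), a 16.9-fold ratio of means. Has3 stood at 16.5, 17.6 and 11.6 CPM in intact bladder and at 38.9, 49.6 and 62.0 CPM after dissociation. The lowest dissociated Has3 value was above the highest intact one, and the log2 difference was 1.83 ± 0.21 (SE), a 3.30-fold ratio.

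Tnfaip6, the hyaluronan cross-linker, followed Has1 in size. It stood at 0.563, 0.582 and 0.885 CPM in intact bladder and at 91.4, 114 and 91.4 CPM in dissociated bladder. These groups were far apart, with 76 and 7858 reads behind them, a log2 difference of 7.34 ± 0.17 (SE) and a 146-fold ratio of means. The matrix proteoglycan Vcan stood at 156, 180 and 133 CPM in intact bladder and at 624, 482 and 393 CPM in dissociated bladder. The receptor gene Cd44 stood at 83.1, 84.6 and 73.3 CPM in intact bladder and at 127, 150 and 177 CPM after dissociation. Both were higher in every dissociated library than in any intact one, by 1.79 ± 0.19 (SE) on the log2 scale for Vcan and 1.02 ± 0.13 (SE) for Cd44.

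The hyaluronidase genes differed from the other members in this contrast. Hyal1 stood at 24.4, 23.5 and 25.8 CPM in intact bladder and at 22.5, 21.3 and 27.8 CPM in dissociated bladder. Hyal2 stood at 36.4, 33.1 and 36.0 CPM in intact bladder and at 28.4, 29.9 and 33.4 CPM in dissociated bladder. The ranges overlapped for both genes, and the log2 differences were 0.07 ± 0.12 (SE) for Hyal1 and -0.09 ± 0.09 (SE) for Hyal2; scaled by library size alone, Hyal1 turned to -0.04. In all, 6 of the 8 members had all dissociated values above all intact values, beside 25.6% of the 16538 genes tested (67.9% separated in either direction). This contrast chose the members, so nothing is read from that count.

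**Figure D1:**
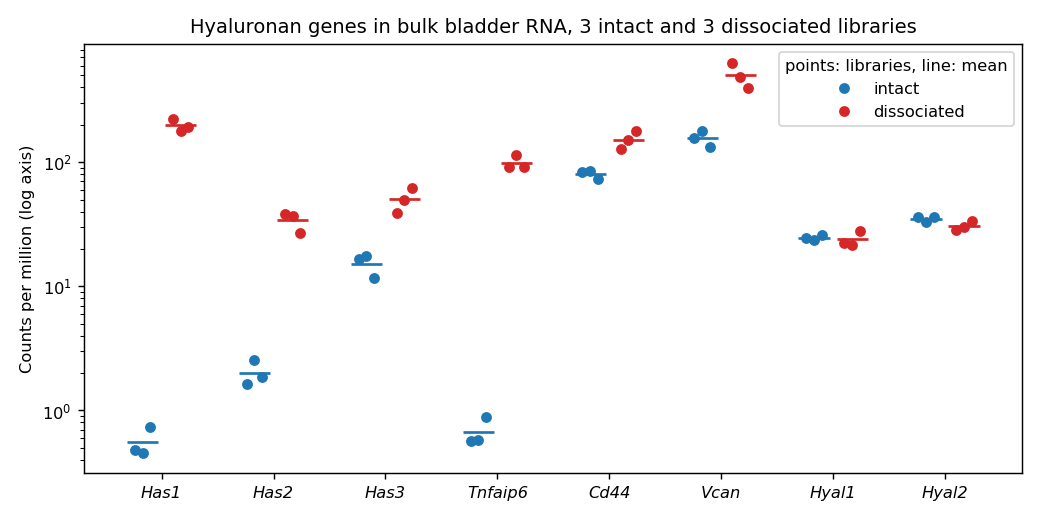
Each point is 1 bulk library, with CPM on a log axis and the 8 genes along the other axis, intact and dissociated bladder in separate colours and a bar at each group mean. Has1 and Tnfaip6 lie below 1 CPM in all 3 intact libraries and above 90 CPM in all 3 dissociated ones, whereas the points of Hyal1 and Hyal2 overlap.

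Other markers moved with the same contrast. Summed fibroblast markers were at 13268 to 16063 CPM in intact and 23899 to 35361 CPM in dissociated bladder (11 of 11 genes called higher, median log2 difference 1.37). Summed smooth muscle markers were at 44090 to 46013 CPM in intact and 2433 to 3628 CPM in dissociated bladder (10 of 10 lower, median -3.84). Urothelial markers were split, with 4 of 11 genes higher and 4 lower (summed 5225 to 6007 CPM in intact and 4294 to 6314 CPM in dissociated bladder), and of 8 tested mesothelial markers 0 were higher and 1 lower (389 to 482 and 215 to 362 CPM). Of 6 tested T or NK markers 2 were higher and 0 lower (6.80 to 14.4 and 12.9 to 48.0 CPM), of 7 dendritic markers 4 and 0, of 8 pericyte markers 2 and 4, and of 8 Schwann markers 3 and 3. Further, 8 of 10 macrophage or monocyte, 6 of 8 blood endothelial and 4 of 4 tested lymphatic endothelial genes were higher after dissociation and 0 lower (median log2 differences 0.55, 0.85 and 0.91). The summed levels were 579 to 623 CPM in intact and 652 to 883 CPM in dissociated bladder for macrophages or monocytes, 428 to 496 and 690 to 835 CPM for blood endothelium, and 87.2 to 92.2 and 145 to 178 CPM for lymphatic endothelium. All 5 erythroid genes tested were higher (summed 72.4 to 82.7 and 297 to 359 CPM) and all 5 adipocyte genes were lower (13.7 to 79.3 and 0.703 to 2.65 CPM). A list of 25 immediate early and stress genes known to respond to tissue dissociation was at 979 to 1241 CPM in intact and 21374 to 25886 CPM in dissociated bladder (24 of 24 tested genes higher, median 4.01). In bulk RNA, more or fewer cells of a type and more or less RNA per cell cannot be told apart, and the part of cell mix or of the response in the members' differences was not tested.

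Other genes of the hyaluronan pathway were taken from lists of 58 genes, of which 49 were measured well enough to test. The lists were chosen with earlier results of these data known. Their calls, here and in nuclei below, therefore describe the lists and are no independent support. By edgeR's quasi-likelihood test with Benjamini-Hochberg adjustment, 32 rose and 10 fell in dissociated bladder, beside 27.9% higher and 31.3% lower among all genes tested (59.2% either way). Their median log2 difference was 0.82, against -0.03 over all genes. Of the 12 genes that make the sugar nucleotide precursors, 8 rose and 4 fell (median 0.64). A broad list of hyaluronan-binding and related proteins had 14 tested genes, of which 8 rose and 2 fell (median 0.89). Not every gene of that list codes for a matrix protein that itself binds hyaluronan. It includes Thbs1, Fbln1, Fbln2 and Fbn1, which were among those that rose, and Habp4, which fell. Of the 10 receptors and receptor partners, 7 rose and 1 fell (median 0.90), of the 6 breakdown genes tested 5 rose and 1 fell (median 0.45), and of the 7 Adamts proteases that cut versican 4 rose and 2 fell (median 1.22).

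The 5 largest rises in these lists were in protease, cross-linking and precursor genes. Adamts4, a protease that cuts versican, rose by 6.48 ± 0.15 (SE, log2; edgeR adjusted p = 4.31e-07), and Adamts1, of the same family, by 4.37 ± 0.15 (adjusted p = 1.20e-06). Ptx3, a pentraxin that works with Tnfaip6 in hyaluronan-rich matrix, rose by 6.03 ± 0.36 (adjusted p = 1.27e-05). Hk2, a hexokinase at the head of the precursor route, rose by 4.04 ± 0.14 (adjusted p = 1.14e-06), and Gfpt2, the first enzyme of the branch to UDP-N-acetylglucosamine, rose by 3.97 ± 0.23 (adjusted p = 1.03e-05). The largest fall was in Stab2, the hyaluronan scavenger receptor of sinusoidal and lymphatic endothelium, with -2.37 ± 0.14 (adjusted p = 1.14e-05). Ncan, a brain proteoglycan of the versican family, fell by 2.28 ± 0.48 (edgeR adjusted p = 0.00466) at a low level. It stood at 0.771 to 1.12 CPM in intact and at 0.0413 to 0.259 CPM in dissociated bladder. Cemip, which takes part in hyaluronan breakdown, fell by 0.79 ± 0.15 (edgeR adjusted p = 0.00308). Adamts8 and Adamts15 fell by 0.79 ± 0.22 and 0.72 ± 0.26 (adjusted p = 0.0157 and 0.0459).

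Single cells showed which classes carried the transcripts. Cells were clustered without the 8 genes, and clusters were named "X-like" from marker lists; the rule for naming them was fixed with the clusters in view. Levels are again CPM, here UMIs (counted molecules) of a gene scaled by all UMIs of the class in a library. A library gave 948 to 8420 cells after filtering, and the 5 whole-bladder libraries held 144 to 3594 fibroblast-like and 737 to 2102 urothelial-like cells. The 2 male libraries shared 64 cell barcodes.

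Has1 had its highest mean over whole-bladder libraries in fibroblast-like cells, at 244 ± 136 CPM (SD, n = 5). Its level there was 120 CPM at 3 months, 347 and 408 CPM in the 12-month libraries, 98.6 CPM at 22 months and 249 CPM at 24 months. The male libraries, also the shallowest, were the lowest and the 12-month libraries the highest. Mesothelial-like cells, the class of the outer lining, had 216, 87.1, 25.6 and 55.9 CPM in the 3-month, first 12-month, 22-month and 24-month libraries. These came from 16, 11, 70 and 29 cells and 4 to 16 UMIs of Has1 each, held by 2, 2, 3 and 7 of these cells. Within a library fibroblast-like cells were higher in 3 of these 4 (exact 95% intervals in brackets treat UMIs as independent, which those of 1 cell are not, so they are too narrow): 347 (323 to 371) against 87.1 CPM (41.8 to 160) in the first 12-month library, 98.6 (91.5 to 106) against 25.6 CPM (6.97 to 65.5) at 22 months and 249 (234 to 265) against 55.9 CPM (32.0 to 90.8) at 24 months. At 3 months the order was the opposite, 120 (111 to 129) against 216 CPM (86.9 to 445). Urothelial-like cells had 2.1 to 4.7 CPM. With cells thinned to 1000 UMIs, 3.98 to 24.1% of fibroblast-like cells held a Has1 UMI, against 0.195 to 0.440% of urothelial-like cells; without thinning the shares were 4.48 to 47.9% and 0.878 to 5.28%. Median depths were 1602 to 6132 UMIs in fibroblast-like and 3128 to 18336 UMIs in urothelial-like cells, and shallower cells were left out only in the male libraries (568 and 204 fibroblast-like, 133 and 17 urothelial-like cells at 3 and 22 months). What the urothelial-like share reflects was not tested.

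Has2 was also found chiefly in fibroblast-like cells. It reached 1.83, 14.3, 18.4, 3.56 and 13.8 CPM at 3, 12, 12, 22 and 24 months, from 11 to 55 UMIs a library. The 2 male libraries were again the lowest. Has3 had another distribution: urothelial-like cells carried 4.00, 5.09, 9.59, 9.02 and 4.67 CPM in the same order, and fibroblast-like cells 0 to 2.17 CPM. Blood endothelial-like cells of the 3-month and 22-month libraries had 4.70 and 3.47 CPM of Has3, on 1 UMI each.

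Tnfaip6 was at 71.7, 129, 461, 126 and 104 CPM in fibroblast-like cells of the 3-month, 12-month, 12-month, 22-month and 24-month libraries. The second 12-month library stood above the others. Urothelial-like cells had 1.4 to 4.6 CPM of Tnfaip6. Vcan was at 93.1, 203, 186, 67.2 and 193 CPM in fibroblast-like cells and at 0.7 to 12.0 CPM in urothelial-like cells, so both genes of the matrix were separated by class in every library.

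Cd44, the receptor gene, was spread over several classes. Macrophage- or monocyte-like cells had 152 ± 81.6 CPM (SD, n = 5 libraries), T- or NK-like cells 123 ± 24.3 CPM (n = 4) and dendritic-like cells 114 ± 48.8 CPM (n = 4). The libraries of these classes overlapped, at 54.1 to 241, 87.2 to 140 and 49.3 to 167 CPM in that order. Urothelial-like cells had 53.4, 44.2, 61.9, 55.0 and 48.9 CPM, and fibroblast-like cells 56.4, 54.7, 59.7, 16.3 and 63.1 CPM at 3, 12, 12, 22 and 24 months. Those classes overlapped, apart from the low fibroblast-like value at 22 months.

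The hyaluronidase genes were found in further classes. Hyal2 was highest in endothelium: 151 and 108 CPM in blood endothelial-like cells of the 3-month and 22-month libraries (32 and 31 UMIs), and 108 and 255 CPM in lymphatic endothelial-like cells (3 and 17 UMIs). Urothelial-like cells had 61.6, 34.4, 20.5, 50.3 and 37.5 CPM of Hyal2 and fibroblast-like cells 38.5, 20.2, 17.4, 35.3 and 17.3 CPM, with overlapping ranges. Hyal1 was at 16.0, 18.3, 21.0, 21.4 and 23.2 CPM in urothelial-like cells and at 9.2, 10.5, 15.2, 10.0 and 11.1 CPM in fibroblast-like cells. Each urothelial-like Hyal1 value was above every fibroblast-like one.

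**Figure D2:**
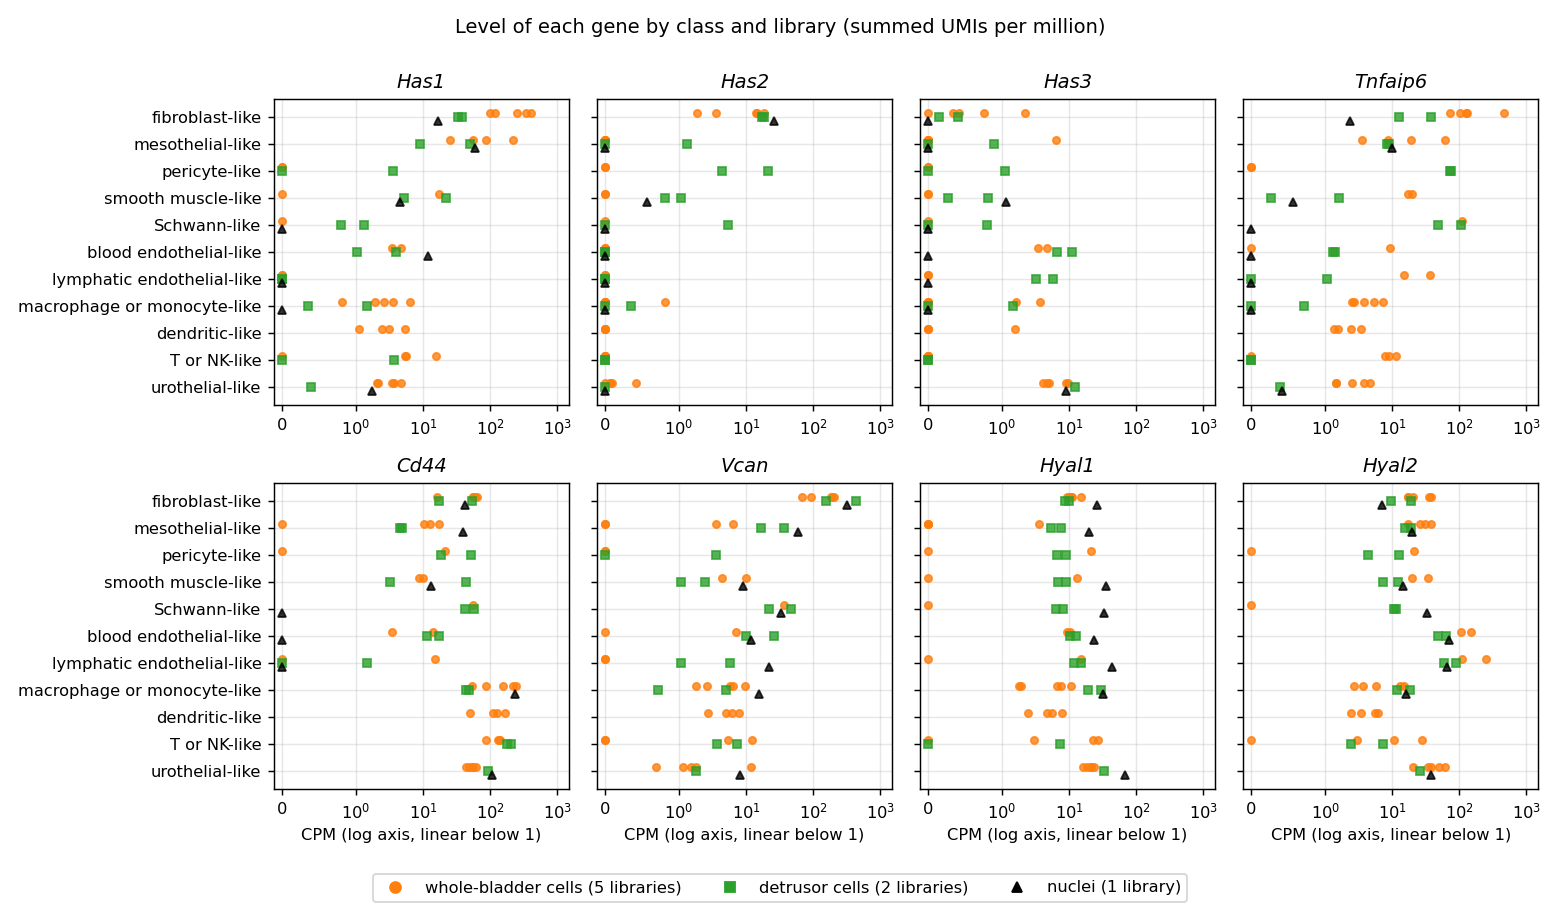
Levels of the 8 genes by cell class are plotted in CPM on an axis that is logarithmic above 1 and linear below it, with 1 point per library: circles for whole-bladder cells, squares for detrusor preparations and triangles for nuclei. Has1, Has2, Tnfaip6 and Vcan have their highest whole-bladder points in fibroblast-like cells, Has3 in urothelial-like cells and Hyal2 in endothelial-like cells.

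The detrusor preparations added classes that whole-bladder libraries held in few cells, and the detrusor library gave no urothelial-like cluster. Fibroblast-like cells there had 33.8 CPM of Has1 in the detrusor library and 37.5 CPM in the detrusor-enriched one, below all 5 whole-bladder values. For Has2 they had 17.1 and 18.3 CPM, near the highest whole-bladder values. Tnfaip6 in the same cells was at 38.3 and 12.7 CPM, and was higher in pericyte-like cells, with 72.7 and 75.2 CPM (67 and 42 UMIs, in 28 and 7 cells). Schwann-like cells, the glia of peripheral nerves, had 47.4 and 108 CPM of Tnfaip6 (59 and 81 UMIs). Has2 in pericyte-like cells was at 4.34 and 21.5 CPM, but its 4 and 12 UMIs lay in 2 of 169 and 2 of 107 cells (1.18% and 1.87%), against 9.26% and 11.3% of fibroblast-like cells. Mesothelial-like cells of the detrusor library held 115 Has1 UMIs, a level of 51.0 CPM, above the 33.8 CPM of its fibroblast-like cells. The detrusor-enriched library had the opposite order, 8.95 CPM in mesothelial-like cells (6 UMIs) against 37.5 CPM. Has3 in blood endothelial-like cells was at 6.58 CPM in the detrusor library (19 UMIs) and at 10.9 CPM in the detrusor-enriched one (25 UMIs), where urothelial-like cells had 12.3 CPM. With 1 library of each kind, and another age and sex mix, these values have no replicate check.

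Most fibroblast-like clusters were led by Pi16 or Clec3b, genes of adventitial fibroblasts, or by Car3 or Cxcl14. Outside these kinds were 398 cells of the detrusor-enriched library whose leading genes came from both (Has1 49.0, Has2 27.4 and Vcan 495 CPM) and 51 cells of the detrusor library led by neither (Has1 35.4 and Has2 86.0 CPM). Both kinds were present in 5 libraries: the 3-month, the 12-month, the 24-month and the detrusor-enriched libraries. The clusters were made from the same cells, so their differences are described without a test. Has1 was higher in the Pi16-led kind in 5 of 5 libraries: 380 against 6.00 CPM at 3 months, 600.3 against 78.8 and 512 against 187 CPM at 12 months, 465 against 29.9 CPM at 24 months and 69.4 against 6.57 CPM in the detrusor-enriched library. The ratio ran from 2.74 to 63.3. Has2 was also higher in the Pi16-led kind in 5 of 5 libraries, by 2.25 to 10.3 times, and so was Tnfaip6, by 2.16 to 14.1 times. Has1 and Tnfaip6 were uneven among Pi16-led clusters. Has1 at 3 months was at 783, 260 and 178 CPM in these clusters, beside 1.25 to 14.7 CPM in Car3-led clusters. At 22 months a Pi16-led cluster of 282 cells had 516 CPM of Has1 (375 UMIs), and the others 0 to 81.5 CPM. Tnfaip6 at 3 months was at 591, 75.1 and 14.3 CPM in Pi16-led clusters, beside 6.06 to 34.3 CPM in Car3-led clusters. In the detrusor-enriched library Pi16-led clusters had 35.5, 6.88 and 5.52 CPM, beside 5.44 and 7.75 CPM in Car3-led ones.

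Cd44 and Vcan had the opposite order. Cd44 was at 9.30 against 77.0 CPM at 3 months in Pi16-led against Car3-led cells, 27.9 against 83.1 and 41.4 against 98.5 CPM at 12 months, 33.9 against 92.7 CPM at 24 months and 15.7 against 94.5 CPM in the detrusor-enriched library. Car3-led cells were thus higher in Cd44 by 2.38 to 8.29 times in 5 of 5 libraries, and in Vcan by 2.31 to 3.71 times. Hyal1 and Hyal2 had no common direction, each being higher in the Pi16-led kind in 3 of 5 libraries. The dissociation response list summed to 22120 to 40508 CPM in Pi16-led cells and 24737 to 39581 CPM in Car3-led cells of these libraries, ranges that overlap. Pi16-led cells of the second 12-month library carried summed mesothelial markers at 675 CPM, against 19.5 to 75.5 CPM in the other 4 libraries, and their part in its Has1 and Tnfaip6 levels was not tested. In the 22-month library all clusters named fibroblast-like were Pi16-led (3565 cells), and 2217 stromal cells of 2 unnamed clusters, led by Actg2 and Car3 or by Mfap4 and Wnt2, had 5.58 CPM of Has1, 93.7 CPM of Cd44 and 199 CPM of Vcan. The low fibroblast-like Cd44 and Vcan levels of that library, 16.3 and 67.2 CPM, are levels of Pi16-led cells alone.

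**Figure D3:**
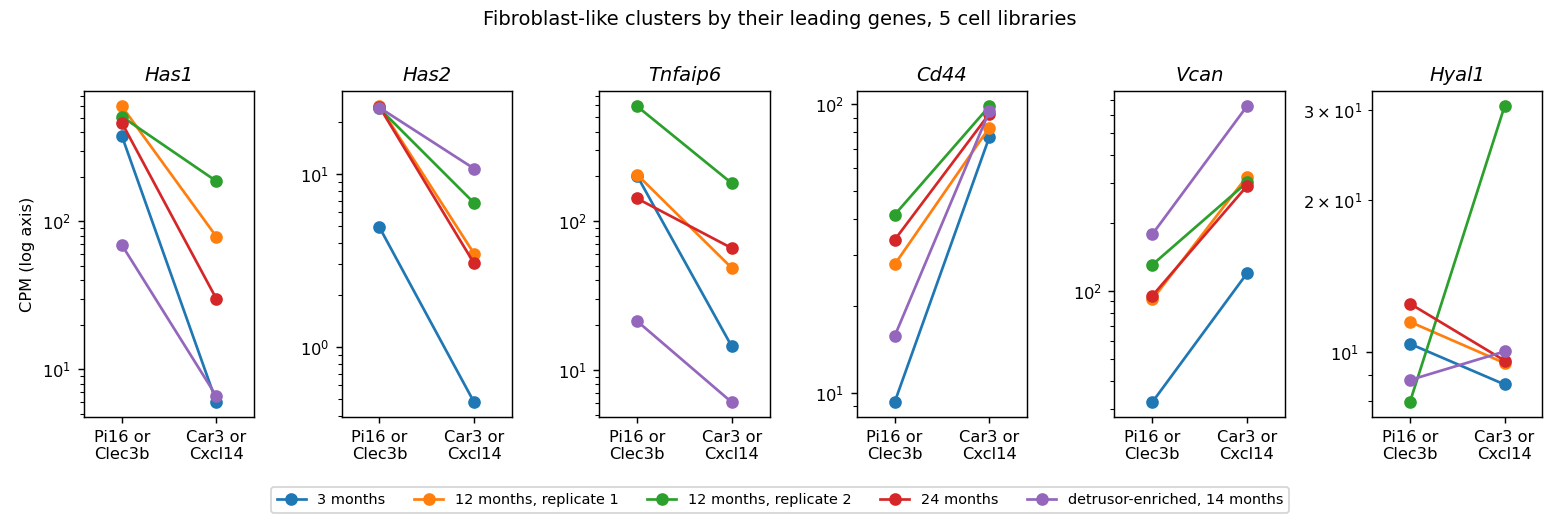
CPM on a log axis, scaled per panel, for 6 of the members in Pi16-led and Car3-led fibroblast-like cells, with a line joining both kinds of a library. In 5 of 5 libraries the lines for Has1, Has2 and Tnfaip6 run down from Pi16-led to Car3-led cells and those for Cd44 and Vcan run up.

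Nuclei were set beside dissociated cells of the same class. Levels of the members in the cell and nuclei files were among the data they were chosen with, so these values too are a description, given without a test. The fitted log2 differences come from an edgeR model on summed counts of 1 nuclei library and 5 whole-bladder cell libraries, in which the lone nuclei library is assumed to vary as the cell libraries do. Levels here are CPM over the genes shared by all tables. In fibroblast-like nuclei (406 nuclei), Has1 was at 16.8 CPM (7 UMIs) and at 101 to 417 CPM in the cells, so the nuclei lay below every cell library. Against the pooled cells this is 10.7-fold lower by counts (95% exact interval 5.19 to 26.6, counting error only), with a fitted log2 difference of -4.85 ± 1.27 (SE). Tnfaip6 was at 2.41 CPM in nuclei (1 UMI) against 73.3 to 472 CPM in cells, a ratio of 0.0194 (95% exact interval 0.000491 to 0.108). Hyal2 was at 7.22 CPM in nuclei (3 UMIs) against 17.7 to 39.4 CPM in cells, a ratio of 0.234 (0.0481 to 0.686). As CPM, all 3 genes were lower in the nuclei than in any of the 5 cell libraries. The Hyal2 interval is against pooled cells, and 3 UMIs do not set Hyal2 apart from the lowest cell libraries beyond counting error.

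The other members did not lie below the cells. Vcan was at 330 CPM in nuclei and 68.7 to 208 CPM in cells, with a fitted log2 difference of 0.17 ± 0.70 (SE). Has2 was at 26.5 CPM (11 UMIs) against 1.88 to 18.9 CPM, with 0.46 ± 1.31. Both nuclei values lay above all 5 cell libraries as CPM, while the fitted differences, after normalization, were within their errors. Cd44 was at 43.3 CPM in nuclei, within the 16.6 to 64.4 CPM of the cells (-1.15 ± 0.81), and Hyal1 was at 26.5 CPM against 9.38 to 15.5 CPM (0.34 ± 0.54). Has3 had 0 UMIs in these nuclei, where 3 UMIs, the floor for a count of 0, would be 7.22 CPM.

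**Figure D4:**
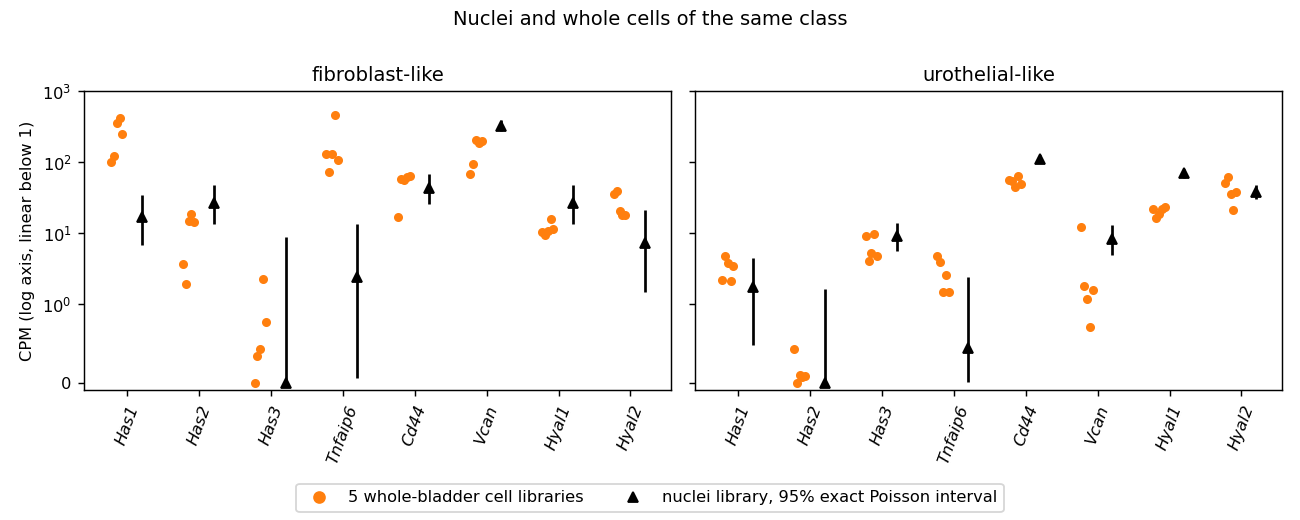
CPM, logarithmic above 1 and linear below it, for members in fibroblast-like and urothelial-like classes, with 1 circle for each of the 5 whole-bladder cell libraries and a triangle with its 95% exact Poisson interval for the nuclei library. Has1 and Tnfaip6 of fibroblast-like nuclei lie below all 5 cell libraries, and Cd44 and Hyal1 of urothelial-like nuclei lie above them.

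All clusters of fibroblast-like nuclei were Pi16-led, the kind with more Has1 in cells. Set against Pi16-led cells only, an alternative added after seeing the data, the fitted log2 difference was -5.57 ± 1.30 for Has1 (SE), -7.63 ± 1.72 for Tnfaip6, on 1 UMI in nuclei, and -2.82 ± 0.62 for Hyal2. As CPM over all genes, those nuclei had 42.5 of Cd44, 323 of Vcan, 26.0 of Has2 and 26.0 of Hyal1. Each value lay above Pi16-led whole-bladder cells, which had 9.30 to 41.4, 32.3 to 131, 3.56 to 24.6 and 7.97 to 12.5 CPM. Has2 rested on 11 UMIs (95% exact interval 13.0 to 46.5 CPM) and Cd44 on 18 UMIs. For these genes counting error covers the distance to the highest cell library. Smooth muscle markers summed to 11537 CPM in those nuclei and to 125 to 712 CPM in Pi16-led whole-bladder cells, and the dissociation response list to 3353 CPM against 32826 to 40508 CPM. Their part in the result was not tested. Mesothelial-like nuclei (92 nuclei) had 6 UMIs of Has1, a level of 60.0 CPM over all genes (95% exact interval 22.0 to 131). This was the highest value of the classes of the nuclei library. Schwann-like and lymphatic endothelial-like nuclei held 0 UMIs, where 3 UMIs would be 99.8 and 66.4 CPM, so they cannot be ranked below it. The mesothelial-like interval also overlapped those of blood endothelial-like (0.297 to 65.3), macrophage- or monocyte-like (0 to 58.3) and fibroblast-like nuclei (6.64 to 34.0). Mesothelial-like cells had 25.6 to 216 CPM, so nuclei and cells of this class overlapped; 1 cell library reached 50 such cells and no test was run. The nuclei library as a whole held 26 Has1 UMIs, of which 7 lay in fibroblast-like, 6 in mesothelial-like, 8 in smooth muscle-like and 4 in urothelial-like nuclei.

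In the urothelial-like class (1273 nuclei), Tnfaip6 had 1 UMI in nuclei, a ratio to cells of 0.219 whose exact interval of 0.00551 to 1.24 includes 1. Hyal2 was at 38.2 CPM in nuclei, within the 21.0 to 62.7 CPM of the cells, and Has3 was at 9.12 CPM, within their 4.08 to 9.81 CPM. Has1 was at 1.74 CPM (4 UMIs) against 2.12 to 4.76 CPM. Cd44, at 110 CPM, lay above the 45.03 to 63.4 CPM of the cells, and so did Hyal1, at 69.5 CPM against 16.3 to 23.6 CPM. The fitted differences of Cd44 and Has3 changed sign with the scaling, and the median of all genes was -0.03 under the normalization used here and 1.12 under library size alone. Cd44 gave -0.16 ± 0.37 (SE) and, under library size alone, 1.04 ± 0.28. Has3 gave -0.75 ± 0.70 and 0.47, Hyal1 0.54 ± 0.43 and 1.77 ± 0.30, and Hyal2 -1.23 ± 0.39 and -0.12. In the fibroblast-like class the same change moved the median of all genes from -0.32 to 0.57 and Has1 from -4.85 to -3.88.

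The calls for other pathway genes compare this 1 nuclei library with the cell libraries, and nothing here measures the spread between nuclei preparations. Of 38 genes tested in fibroblast-like nuclei with edgeR, 9 were lower and 0 higher, beside 14.5% lower and 7.87% higher among 12381 genes (22.4% either way). Their median log2 difference was -1.24, against -0.32 over all genes. These directions depended on the scaling. Under library size alone 2 pathway genes were lower and 4 higher, beside 453 lower and 2598 higher among all genes, and their median was -0.36 against 0.57. With size factors of the RLE (relative log expression) kind, 6 were lower and 1 higher, beside 1425 and 1285 of all genes. With only the 12-month cell libraries, the age of the nuclei, 33 were tested and their median was -1.15, against -0.05 over 9812 genes. Hexa, a lysosomal enzyme of hyaluronan breakdown, gave -2.41 ± 0.36 (SE, log2; edgeR adjusted p = 0.00953). Uap1, of the N-acetylglucosamine branch, gave -2.50 ± 0.58 (adjusted p = 0.0223; 0.0654 under library size alone). Ugdh, which makes UDP-glucuronic acid, gave -3.11 ± 0.87 (adjusted p = 0.0390), a call lost without the first 12-month or the 24-month library (0.0724 and 0.0634). Adamts4 had 1 UMI in nuclei, at 2.41 CPM against 30.2 to 127 CPM in cells, a count ratio of 0.0406 (95% exact interval 0.00103 to 0.227). Its call was lost without either 12-month library or the 24-month library (edgeR adjusted p = 0.0505 to 0.0686). Of the 9 calls, 4 held in all 5 fits that left out 1 cell library, and 2, Adamts4 and Hexa, under library size alone.

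In urothelial-like nuclei 39 were tested, and 12 were lower and 1 higher, beside 19.2% lower and 15.9% higher among 13329 genes (35.1% either way), with a median log2 difference of -0.92 against -0.03 over all genes. Under library size alone 0 were lower and 6 higher, beside 584 lower and 5033 higher among all genes, and the median was 0.14 against 1.12. With only the 12-month cell libraries 37 were tested and their median was -0.996, against -0.00018 over 12944 genes. Pgm1, a precursor gene, gave -1.76 ± 0.32 (SE, log2; edgeR adjusted p = 0.00698). The matrix protein gene Itih5 was the higher one, at 39.1 CPM in nuclei against 1.69 to 10.0 CPM in cells (2.34 ± 0.68; edgeR adjusted p = 0.0354), and its call was lost without either 12-month library or the 24-month library (0.0583 to 0.0763) and with doublets kept (0.152). Adamts1 gave -1.82 ± 0.58 (edgeR adjusted p = 0.0476) and lost its call without the 22-month, 3-month, first 12-month or 24-month library (0.0579 to 0.0733). Gfpt2 had 1 UMI in nuclei (count ratio 0.192 with an exact interval of 0.00484 to 1.08) and Itih2 2 UMIs (0.417 with 0.0501 to 1.53). Of the 13 calls, 7 held in all 5 fits that left out 1 cell library, and 1, Itih5, under library size alone.

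Age was compared between the 22-month and 24-month libraries and the 3-month and 12-month libraries. The model also held whether a pool was male or of both sexes. Male libraries also differed from the others in depth, with medians of 1837 and 2524.5 UMIs per barcode against 9893 to 15042. That term therefore holds more than sex. Among 11725 genes tested in fibroblast-like cells, edgeR called 0 (0%; 202 had an unadjusted p under 0.05, and DESeq2 called 0), and no member passed. The older-minus-younger log2 differences were -0.44 ± 0.23 (SE) for Has1, -0.43 ± 0.94 for Tnfaip6, 0.22 ± 0.41 for Has2, -0.64 ± 0.41 for Cd44 and -0.19 ± 0.19 for Vcan. Without the 24-month library Cd44 gave -1.66. With the sex term kept, that value rests on the 22-month against the 3-month library, 1 against 1, and the 22-month class held Pi16-led cells alone, so it is given without a test. Among Pi16-led cells only, Cd44 gave 0.32 ± 0.34, Has1 -0.95 ± 0.35 and Tnfaip6 -1.13 ± 0.55, none of which passed (edgeR adjusted p = 1.00). In that kind Has1 was at 98.6 CPM at 22 months and 380 CPM at 3 months. Its clusters ran from 0 to 516 CPM and from 178 to 783 CPM in the same order. In urothelial-like cells 0 of 12670 genes were called by edgeR (0%; 346 had an unadjusted p under 0.05, and DESeq2 called 2), and the members there did not pass. Vcan there had the largest member difference, 1.47 ± 0.52 (SE; edgeR adjusted p = 0.999).

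Sections of undissociated frozen bladder held few Has1 and Tnfaip6 transcripts. Has1 was at 0.712 and 0.137 CPM in the 22-month sections and at 3.17 and 0.629 CPM in the 14-month sections, from 22, 3, 67 and 14 UMIs. Tnfaip6 was at 0.680 and 0.320 CPM at 22 months and at 1.09 and 0.853 CPM at 14 months. The first 14-month section stood above the other sections for both genes. The dissociation response list summed to 1659, 1195, 5675 and 2990 CPM in the same order of sections, with its highest value in that section too; across whole droplet libraries it was at 2059 CPM in nuclei and 9879 to 41507 CPM in cells. Its part in the Has1 level was not tested. Has2 was at 0.745, 0.548, 0.474 and 0.718 CPM, and Has3 at 3.21 and 3.11 CPM at 22 months and 5.92 and 5.25 CPM at 14 months. Cd44 was at 49.96 to 59.8 CPM, Vcan at 23.9 to 44.99 CPM, Hyal1 at 3.29 to 5.61 CPM and Hyal2 at 50.02 to 77.4 CPM.

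Between 22 and 14 months, edgeR called 0 of 14995 genes in sections (0%; 2488 had an unadjusted p under 0.05, and DESeq2 called 420). The 2 ages did not overlap for 5 of the 8 members, Has3, Hyal2, Hyal1, Cd44 and Tnfaip6, all lower at 22 months, beside 32.8% of all genes tested (51.2% in either direction). The log2 differences were -0.76 ± 0.21 (SE; edgeR adjusted p = 0.196) for Has3, -0.35 ± 0.11 (adjusted p = 0.210) for Hyal2 and -0.45 ± 0.21 (adjusted p = 0.346) for Hyal1. Cd44 gave -0.11 ± 0.10 (adjusted p = 0.602). Has1, Has2 and Vcan overlapped between the ages. Has1 gave -2.02 ± 1.03 (adjusted p = 0.402) and Tnfaip6 -0.85 ± 0.47 (adjusted p = 0.407). Whether the sections of an age came from different animals is not given in the sources used here.

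Within sections, spots were compared by marker level. A spot covers several cells, and the 25% of spots with the highest summed markers of a class were set against all other spots of that section. Has1 was higher in fibroblast marker-high spots in 4 of 4 sections, with a mean log2 difference of 2.20 ± 0.78 (SD, n = 4 sections; range 1.74 to 3.36), and lower in urothelial marker-high spots in 4 of 4, at -2.34 ± 1.03. For Has1 these sets held 56 and 17 UMIs, and its other spots 50 and 89 UMIs. The second 22-month section held 3 Has1 UMIs in all and the first 14-month section 67, so the sections weigh unequally. Vcan, Tnfaip6 and Has2 were likewise higher in fibroblast marker-high spots in 4 of 4 sections, by 1.44 ± 0.25, 1.32 ± 1.00 and 0.97 ± 0.60 (with 10% of spots, 1.70 for Vcan and 1.57 for Has2). Over the 4 sections these spots held 1288, 31 and 22 UMIs of the 3 genes in that order, and the other spots 1829, 39 and 39 UMIs. In urothelial marker-high spots Has2 was higher in 3 of 4 sections (mean -0.11 ± 0.94, on 31 UMIs against 30 in the other spots). Vcan was higher there in 2 of 4 sections (-0.23 ± 0.44) and Tnfaip6 in 1 of 4 (-1.79 ± 1.37). Has3 was higher in urothelial marker-high spots in 4 of 4 sections, by 1.30 ± 0.68 (range 0.68 to 2.05; 0.34 with 10% of spots in the marker-high set), and lower in smooth muscle marker-high spots in 4 of 4, at -1.90 ± 0.64. Cd44 was higher by 0.81 ± 0.61 in urothelial marker-high spots and lower in smooth muscle marker-high spots, at -1.56 ± 0.20, in 4 of 4 sections each. Hyal1 was higher in urothelial marker-high spots in 3 of 4 sections (0.40 ± 0.37), and Hyal2 gave -0.07 ± 0.29 there. In mesothelial marker-high spots Has1 was higher in 2 of 4 sections (-0.40 ± 1.04). Urothelial marker-high spots had a median of 32549 to 49105 UMIs and the other spots 12495 to 15625, and the part of depth in these differences was not tested.

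**Figure D5:**
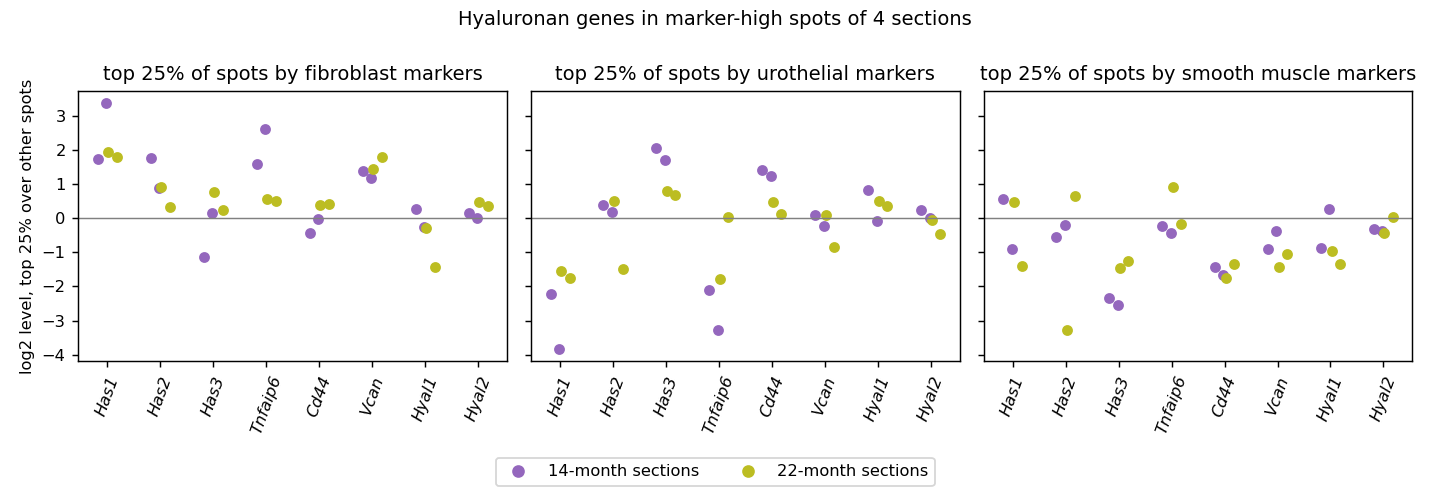
Log2 difference in CPM between marker-high spots and all other spots of a section, for each gene and 3 marker lists, with 1 point per section, coloured by age, and the 25% of spots with the highest summed markers as the marker-high set. Has1, Has2, Tnfaip6 and Vcan lie above 0 for fibroblast markers in 4 of 4 sections, and Has3 and Cd44 for urothelial markers.

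Genes whose class profiles were most like those of the members were found over 51 class-by-library profiles and 14029 genes, by Pearson's r of log2 levels. Profiles of a library share its depth and free RNA, so r is a description. Closest to Has1 were Gfpt2 (0.84), Vit (0.80), Fbln1 (0.78), Ackr4 (0.78) and Mrc2 (0.77). Gfpt2 is itself an enzyme of the precursor list, named above for its bulk difference. Closest to Has2 were Dact1 (0.86), Dclk1 (0.83) and Epha3 (0.83), to Tnfaip6 Mfap5 (0.83), Chpf (0.80) and Vstm4 (0.76), to Cd44 B4galnt1 (0.75), Pycard (0.75) and Padi2 (0.71), and to Vcan Scara5 (0.85), Plxdc2 (0.81) and Lum (0.81).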

How the data were processed

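Unnormalized UMI counts per gene and barcode or spot, and read counts per gene in bulk, were used as the authors deposited them. Per the submitters' processing notes, the tools were bcl2fastq, Cell Ranger, Space Ranger, Subread and featureCounts with build mm10; no versions are given in the sources used here. Members and gene lists were chosen with earlier results of these data known. Cells and spots needed 500 UMIs, and cells at most 20% mitochondrial counts; the highest doublet scores (0.8% of barcodes per 1000 barcodes) were removed. Cells were clustered per library without the 8 members (2000 variable genes, 30 components, 15 neighbours, Leiden resolution 1; leidenalg 0.10.2). Counts were summed per library and class (50 cells or more) and tested with edgeR 4.0.16 (TMM, robust quasi-likelihood, two-sided, Benjamini-Hochberg threshold 0.05), after checks on simulated counts; DESeq2 1.42.0 was an alternative. Spot levels had 0.1 CPM added before log2; likeness used a pseudocount of 1 CPM. Named pathway genes were the 5 largest called changes per direction, apart from 1 gene not reported here, and likeness names up to 5 genes per member. Totals were 5197910 to 55374101 UMIs per droplet library and 21976101 to 32021223 per section. Intervals cover counting error only. Alternatives are in the closing section.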

Additional observations from a re-analysis of the deposited data

How the results depend on the processing

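In bulk, 9798 genes were called, and 8128 to 10118 under every alternative run. The members' directions held, except for Hyal1. Its log2 difference turned sign under library size alone and ran from -0.06 to 0.18 with 1 library left out. The replicate block called 10118 genes; same-numbered libraries correlated at 0.28, 0.38 and -0.05 in their deviations, so the numbers do not show pairing. In fibroblast-like nuclei, leaving out 1 cell library gave 1612 to 2728 calls against 2776 (4147 with only the 12-month cell libraries, 2481 with cells of at least 1000 UMIs); urothelial-like nuclei gave 6802 and 4709 there, against 4682. Library size alone, added after seeing the data as was the restriction to Pi16-led cells, reversed Cd44 in urothelial-like nuclei (1.04). For age, fibroblast-like calls were 1 with no filter on low counts and 0 to 518 with 1 library left out (518 without the 24-month library, the maximum); urothelial-like calls were 2 with DESeq2, 71 with no filter and 1 to 46 with 1 library left out. In sections, DESeq2 called 420 genes, no filter 287, and leaving out 1 section 0 to 300. With 10% of spots in the marker-high set, the differences were 0.34 for Has3 (urothelial), 1.57 for Has2 and 1.70 for Vcan (both fibroblast). Hyal2 in urothelial marker-high spots ran from -0.172 to 0.0602 with 1 section left out, turning sign without the second 22-month section. The causes were not tested. By age, 69 fibroblast-like, 63 urothelial-like and 56 section values of members stayed uncalled, without an adjusted p under 0.05 (they could change sign). The fits without the 24-month library set 1 male library against 1, with the sex term kept, so their calls, Cd44 in fibroblast-like cells among them, have no replicate of either age. Mesothelial-like alternatives were not run, for want of cells. With 1 nuclei library and 1 to 11 UMIs behind 5 of its fibroblast-like members, depth limits those values.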
